A study of Mus musculus with 225 samples.

Results

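Retinoic acid is made from vitamin A in some embryonic cells and destroyed in others, and its level in a limb bud depends on where both happen. Retinaldehyde dehydrogenases carry out the last step of synthesis, and enzymes of the Cyp26 family oxidize the product. Inside a cell retinoic acid is carried by the binding proteins Crabp1 and Crabp2 and acts through nuclear receptors, Rara, Rarb and Rarg, that bind DNA together with an Rxr partner. In the limb the pathway is known for proximal to distal patterning, for the removal of tissue between digits and for the control of cartilage formation. The members described here are 7 genes picked by name, *Aldh1a2*, *Cyp26b1*, *Rara*, *Rarb*, *Rarg*, *Crabp1* and *Crabp2*. All 7 were found among the 23165 genes of the count table and among the 10948 genes of the normalized table.

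The data are single cells of mouse forelimbs at embryonic day 12.5, from the autopod, which forms the digits, and from the zeugopod, which forms the forearm. All embryos were heterozygous for *Hoxd11::GFP*, a tau-GFP knock-in in frame with *Hoxd11*, on a mixed background of C57Bl6CBAF1, and both tissues carried the allele. Sorting had kept the brightest GFP cells for capture on a Fluidigm C1 chip, so shares of cells refer to cells that had made GFP from *Hoxd11* and not to the whole limb. Of 96 captured autopod cells the authors retained 76, with 59 in run NXT0072 and 17 in run NXT0143. Of the zeugopod cells they retained 58 of 60 in run NXT0142 and 65 of 69 in run NXT0143, and every share of zeugopod cells without a run is of these 58 and 65 together. Forelimbs of several embryos were pooled without a record of which cell came from which embryo, and each tissue therefore stands as 1 sample with cells that are no replicates, for which p-values were not computed. The retained cells had 186271 to 9437447 reads on genes, and no 2 of them had identical counts. The median number of genes with a read was 3528 and 3965 in the autopod cells of NXT0072 and NXT0143, and 4283.5 and 3745 in the zeugopod cells of NXT0142 and NXT0143. Position markers mostly followed the labels. *Hoxd13* was found in 65 of 76 autopod cells and in 1 zeugopod cell, and *Shox2* in 0 autopod cells and 73 zeugopod cells. Among autopod cells, those without *Hoxd13* were a larger share in NXT0143 than in NXT0072. No retained cell met the criteria set for muscle, epithelium, endothelium or macrophages, and 1 autopod cell had the blood marker *Hba-x*.

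A gene is called detected in a cell at 5 or more reads. Shares of cells carry exact (Clopper-Pearson) 95% intervals. These cover the counting of cells only, and not missed detection or differences between embryos or runs. The reads carry no molecular identifiers. The deposited normalized value is corrected with spike-ins and for gene length, and serves for levels between genes. It is not 0 for a cell without reads but sits at a floor set by gene length, from 0.206 for *Cyp26b1* to 1.24 for *Crabp1*.

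**Figure D1:**
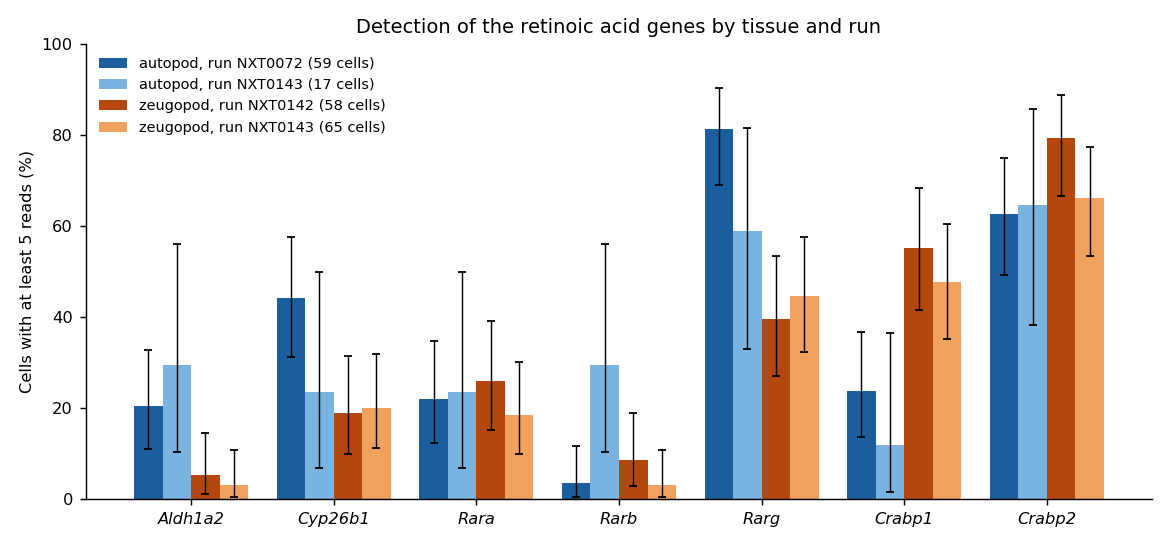
Share of retained cells with at least 5 reads (vertical axis, in percent) of each of the 7 genes, by tissue and run. Bars give the share and error bars the exact 95% binomial interval, with *Crabp1* lower in both groups of autopod cells (23.7% and 11.8%) than in both groups of zeugopod cells (55.2% and 47.7%).

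*Aldh1a2* encodes the retinaldehyde dehydrogenase that makes most of the retinoic acid of the early embryo. It lies on chromosome 9 of GRCm38, chr9:71215789-71296243, on the plus strand. In the autopod it was detected in 17 of 76 cells (22.4%, interval 13.6 to 33.4%), which were 12 of the 59 cells of NXT0072 and 5 of the 17 of NXT0143. In the zeugopod it was detected in 5 cells (4.07%, interval 1.33 to 9.23%), which were 3 of the 58 cells of NXT0142 and 2 of the 65 of NXT0143. The share was thus higher in autopod cells of either run than in zeugopod cells of either run. The intervals of the pooled shares did not overlap. Within NXT0143, which held both tissues, the intervals overlapped narrowly (10.3 to 56% in the autopod and 0.375 to 10.7% in the zeugopod).

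The level of *Aldh1a2* separated the tissues further. The 17 autopod cells held 18 to 22795 reads, with a median of 6194, and 10 of them had over 5000. The 5 zeugopod cells held 11, 64, 73, 167 and 798 reads, so the highest of them lay far below the autopod median. As normalized values in cells with the gene, the autopod ranged from 2.63 to 16383 with a median of 2748, and the zeugopod from 3.95 to 95.7 with a median of 22.4. In the summed reads of a tissue *Aldh1a2* made up 449 CPM (reads per 1000000 reads on genes) in the autopod and 2.83 CPM in the zeugopod, and 1 zeugopod cell held 71% of the latter. Without that cell the zeugopod had 0.828 CPM. *Aldh1a2* was therefore a gene of few autopod cells with very many reads rather than of many cells with few.

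All 17 autopod cells with *Aldh1a2* also had *Hoxd13*, the most distal *Hoxd* gene, against 81.4% of the other autopod cells. The latter share is pooled over runs and was lower in NXT0143 than in NXT0072. *Bmp7*, a ligand known from the tissue between digits, was found in 8 of the 17, where the product of the shares within each run gives 4.0. *Msx2*, a homeobox gene of the same tissue, was found in 10 of the 17 against a product of 7.66, and *Msx1* in 12 against 10.1. The list of markers for this tissue also held *Bmp2* and *Bmp4*, whose joint counts with *Aldh1a2* are not reported here. The ratios of 1.30 and 1.19 for *Msx2* and *Msx1* lie near the median over 6744 genes, which is 1.16 for *Aldh1a2* (10th to 90th percentile 0.746 to 1.66), and that of *Bmp7* lies above this range. The tendon regulator *Scx* was in 0 of the 17, with a product of 1.40. Cells with *Aldh1a2* had more genes detected, with medians of 3732 and 4523 in NXT0072 and NXT0143 against 3363 and 3664.5 in cells without it, and the part of this in the joint counts was not tested.

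The genes whose levels ranked most like *Aldh1a2* across autopod cells were *Aldh1b1* and *Aldh1a7*, both aldehyde dehydrogenases related to it. Their rank correlations with *Aldh1a2* were 0.77 and 0.70 in NXT0072, and 0.78 for each in NXT0143, among 6744 genes. After them came *Rbm12*, *Rasl11a* and *Armc10*, at a mean of 0.56, 0.55 and 0.55 over both runs, with 0.25 to 0.35 in NXT0072 and 0.75 to 0.88 among the 17 cells of NXT0143. At the other end stood *Iqcf3*, *Col11a1*, a collagen of cartilage, and *Zfp518b*, with means of −0.38, −0.35 and −0.34. The cells of a run are no replicates, and these coefficients describe ranks only.

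In the autopod, reads of *Aldh1b1* and *Aldh1a7* were found mostly in cells with many *Aldh1a2* reads. Across the 10 autopod cells with over 5000 *Aldh1a2* reads, a value chosen after the reads were seen, *Aldh1b1* had 11 to 78 reads, 0.108 to 0.566% of the *Aldh1a2* reads, and *Aldh1a7* had 6 to 37, 0.0982 to 0.268%. Among the other 66 autopod cells *Aldh1b1* reached 5 reads in 0 and *Aldh1a7* in 1. *Aldh1a3*, another retinaldehyde dehydrogenase, was detected in 6 of the 10 cells, at up to 1.11% of the *Aldh1a2* reads. The relatives *Aldh1a1* and *Aldh2* did not share this pattern. In the 10 cells *Aldh1a1* had at most 1 read, and *Aldh2* was detected in 1 cell, with 1868 reads. In the zeugopod *Aldh1a3* was the gene with more reads in some cells. Of the 5 cells with *Aldh1a2*, 1 had 14932 reads of *Aldh1a3* beside 73 of *Aldh1a2*, another had 1504 beside 64, and in the next there were 649 beside 798.

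The coding sequences of these genes share short exact stretches. In transcripts of the GENCODE annotation of GRCm38, the longest run shared by *Aldh1a2* and each of 2 relatives is given 5′ to 3′ on the coding strand. The first lies in exon 9 of *Aldh1a2* and of *Aldh1a3*, at chr9:71283410-71283435 and chr7:66406101-66406126, and the second in exon 12 of *Aldh1a2* and of *Aldh1a7*, at chr9:71285966-71285986 and chr19:20696344-20696364.
Aldh1a2 and Aldh1a3: gtgttcttcaaccaaggccagtgctg
Aldh1a2 and Aldh1a7: ttcaagatgtctggaaatggg
These runs are 26 and 21 bases long, and no window of 75 bases, the read length, was identical. The best windows matched at 66 of 75 bases with *Aldh1a3*, 65 with *Aldh1a1*, 62 with *Aldh1a7*, 61 with *Aldh2* and 59 with *Aldh1b1*. Whether low read numbers of 1 relative in cells with many reads of another came from their own transcripts was not tested.

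*Cyp26b1* encodes the Cyp26 enzyme known to clear retinoic acid from the distal limb. It lies on the minus strand at chr6:84571414-84593908. It was detected in 30 of 76 autopod cells (39.5%, interval 28.4 to 51.4%) and in 24 zeugopod cells (19.5%, interval 12.9 to 27.6%). By run the autopod shares were 44.1% (26 of 59) in NXT0072 and 23.5% (4 of 17, interval 6.81 to 49.9%) in NXT0143, and the zeugopod shares 19% (11 of 58) in NXT0142 and 20.0% (13 of 65) in NXT0143. The higher share of the autopod thus rested on NXT0072, and within NXT0143, where both tissues were sequenced together, the intervals overlapped nearly in full.

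In cells with *Cyp26b1* the normalized value had a median of 39.6 in the autopod (0.824 to 804) and 18.1 in the zeugopod (1.44 to 1650). Summed over cells the order was the other way, with 40.1 CPM in the autopod and 50.4 CPM in the zeugopod. A few cells carried much of these sums, as the cell with most reads held 18.8% of the autopod sum and 28.5% of the zeugopod sum. Without these cells the autopod had 32.9 CPM and the zeugopod 36.6 CPM, so the order stayed the same. Thus the autopod had more cells with the gene and the zeugopod a few cells with more reads of it. The other Cyp26 genes were nearly absent, with *Cyp26a1* in 0 autopod cells and 1 zeugopod cell, and *Cyp26c1* in 0 of both, which allows shares of up to 3.95% and 2.44% if 3 cells are taken as the limit of a count of 0, and of 4.74% and 2.95% by the exact interval.

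The genes ranked most like *Cyp26b1* in the autopod were *Islr*, a secreted or membrane protein with immunoglobulin-like and leucine-rich repeats, and *Snai1*, a zinc finger repressor of mesenchymal cells, followed by *Snrpd2*, *Cd3eap* and *Tuba1c*. *Islr* had 0.37 in NXT0072 and 0.83 in NXT0143, and *Snai1* 0.45 and 0.71. *Snai1* was detected in 20 autopod cells, 15 of which had *Cyp26b1*. The lowest were *Cds2*, *Arpc5l* and *Dync2h1*, at means of −0.37, −0.35 and −0.34, and *Cds2* shared 0 of its 10 cells with *Cyp26b1*.

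**Figure D2:**
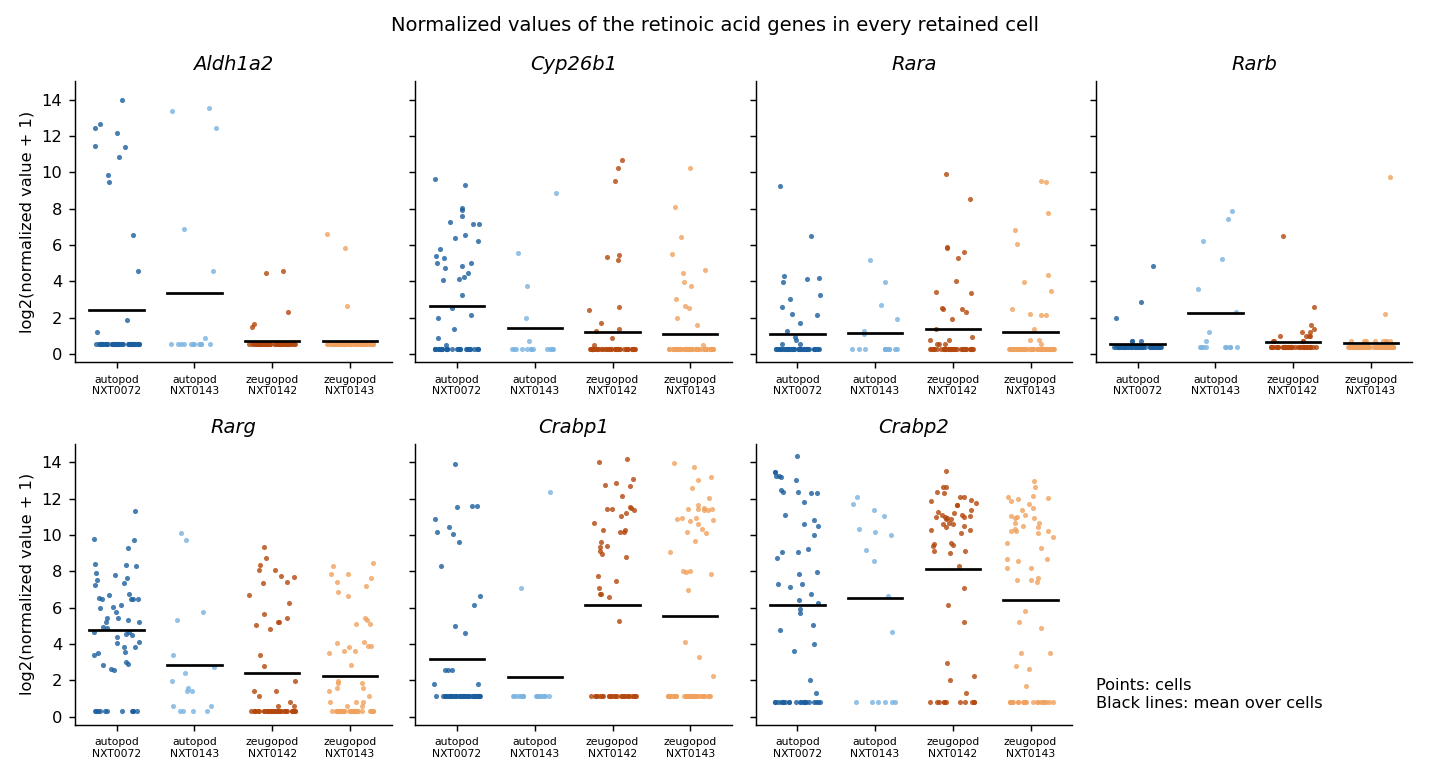
Normalized value of each gene in every retained cell, as log2(normalized value + 1), by tissue and run, with points for cells and black lines for means over cells. The lowest row of points in each panel is the floor, which holds the cells without reads and a few with 1 or 2 reads, *Aldh1a2* is above a value of 8 in autopod cells and not in zeugopod cells, and *Crabp1* and *Crabp2* have separate high and floor groups of cells.

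Synthesis and breakdown were then compared cell by cell. In the autopod 6 cells had both *Aldh1a2* and *Cyp26b1*, 11 had *Aldh1a2* without *Cyp26b1*, 24 had *Cyp26b1* without *Aldh1a2* and 35 had neither. The product of the shares within each run gives 6.46 cells with both. In NXT0072 there were 5 such cells against a product of 5.29, and in NXT0143 there was 1 against 1.18. Autopod cells with both genes were thus about as many as the shares of the single genes give, in each run. Of the cells with *Aldh1a2*, 35.3% had *Cyp26b1* (interval 14.2 to 61.7%), and of those with *Cyp26b1*, 20.0% had *Aldh1a2*.

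The count was also taken by the amount of *Aldh1a2*. Of the 10 autopod cells with over 5000 *Aldh1a2* reads 3 had *Cyp26b1* (interval 6.67 to 65.2%), of the 7 cells with 18 to 926 reads 3 had it (interval 9.90 to 81.6%), and of the 59 cells below 5 reads 24 had it (interval 28.1 to 54.3%), with wide intervals that overlapped. The 6 cells with both held 381 and 170, 404 and 44, 926 and 396, 6194 and 510, 6698 and 92, and 7784 and 90 reads of *Aldh1a2* and *Cyp26b1*. The rank correlation of both genes was −0.10 in NXT0072 and 0.28 among the 17 cells of NXT0143. Given the genes detected per cell it was −0.19 and 0.26, and *Cyp26b1* ranked 3613th of the 6744 genes in likeness to *Aldh1a2*. Over those genes the ratio of joint cells to the product had a median of 1.16 for *Aldh1a2*, and 21% of the genes had a ratio at or below the 0.928 of *Cyp26b1*.

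In the zeugopod 0 cells had both, against a product of 0.969 cells. A count of 0 allows up to 2.44% of cells by the limit of 3 cells and 2.95% by the exact interval, and with 5 cells with *Aldh1a2* in all, an exclusion in the zeugopod was not detectable at this number of cells. At a threshold of 1 read 10 autopod cells and 1 zeugopod cell had both.

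**Figure D3:**
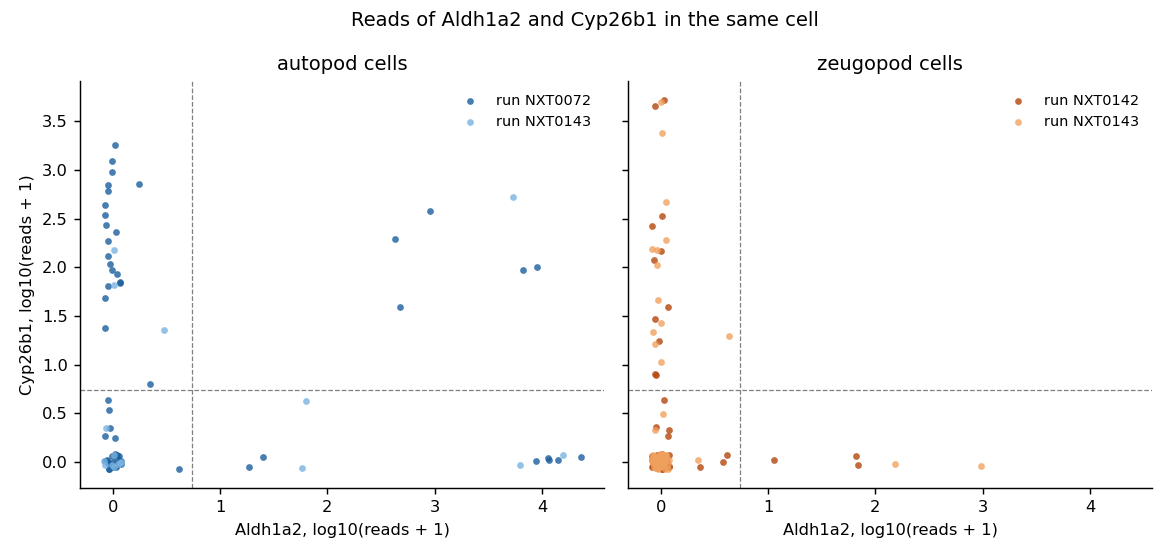
Reads of *Aldh1a2* (horizontal axis) and *Cyp26b1* (vertical axis) in the same cell, both as log10(reads + 1) with a small random shift, for autopod cells on the left and zeugopod cells on the right, coloured by run. Dashed lines mark the threshold of 5 reads, and the upper right field holds 6 autopod cells and 0 zeugopod cells.

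*Crabp1* and *Crabp2* encode small proteins that bind retinoic acid in the cytoplasm, Crabp2 being known to hand it to the receptors and Crabp1 to its breakdown. *Crabp1* lies at chr9:54764748-54773110 and *Crabp2* at chr3:87948666-87953376, both on the plus strand. *Crabp1* was detected in 16 of 76 autopod cells (21.1%, interval 12.5 to 31.9%) and in 63 zeugopod cells (51.2%, interval 42 to 60.3%). By run the autopod had 23.7% in NXT0072 and 11.8% in NXT0143, and the zeugopod 55.2% in NXT0142 and 47.7% in NXT0143. *Crabp1* was thus more frequent in zeugopod cells of either run than in autopod cells of either run.

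In cells with *Crabp1* the normalized value had a median of 1097 in the autopod (23.5 to 15507) and 1774 in the zeugopod (8.67 to 18420). Summed reads gave 90.3 and 352 CPM. The median CPM in cells with *Crabp1* was 151 in the autopod and 383 in the zeugopod. Over both runs together the share of cells and the level in them were thus higher in the zeugopod. Within NXT0143 the level went the other way, with a median normalized value of 2675 in 2 autopod cells and 1922 in 31 zeugopod cells. *Crabp2* was the most widely detected of the 7 genes in the zeugopod, in 89 cells (72.4%, interval 63.6 to 80.04%), and was found in 48 of 76 autopod cells (63.2%, interval 51.3 to 73.9%). Its median in cells with the gene was 1023 in the autopod (3.01 to 20570) and 1461 in the zeugopod (1.51 to 11681), and its sums were 616 and 560 CPM. The tissues overlapped in each of these values. By run its share was 62.7% and 64.7% in the autopod cells of NXT0072 and NXT0143, and 79.3% and 66.2% in the zeugopod cells of NXT0142 and NXT0143.

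Both binding proteins were together in 51 zeugopod cells, against a product within runs of 45.9, with 28 against 25.4 in NXT0142 and 23 against 20.5 in NXT0143. In the autopod the count was 12 against 10.1. The zeugopod ratio of 1.11 was near the middle of all genes, as 52.9% of 7505 genes had a ratio to *Crabp1* at or below it. *Crabp2* was found in 81% of the zeugopod cells with *Crabp1*, and *Crabp1* in 57.3% of those with *Crabp2*. *Crabp1* ranked 79th of 7505 genes in likeness to *Crabp2* in the zeugopod, with rank correlations of 0.48 in NXT0142 and 0.21 in NXT0143, or 0.32 and 0.17 given the genes detected. The 5 genes most like *Crabp1* were *Zfhx3*, *Dpysl2*, *Sod1*, *Cox6a1* and *Rpl4*, at means of 0.50 to 0.54. Those most like *Crabp2* were *Sod1*, *Tuba1a*, *Gsk3b*, *Lgals1* and *Snrpd1*, at 0.46 to 0.50. Several of these are found in nearly every cell, as *Sod1*, a superoxide dismutase, was detected in all but 2 of the zeugopod cells. Cells with *Crabp1* had more genes detected, with medians of 4657 and 3922 against 3855 and 3643.5 in NXT0142 and NXT0143, and its part in these likenesses beyond the partial coefficients was not tested.

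The genes least like the binding proteins in the zeugopod were looked up after the values were seen. For *Crabp1* they were *Sox6*, *Col9a2*, *Sox5*, *Nlgn3* and *Col9a1*, and for *Crabp2* they were *Sox6*, *Col9a3*, *Col2a1*, *Col9a2* and *Col9a1*. Nlgn3 is a neuroligin, a protein of cell contacts known from neurons. Sox5 and Sox6 are partners of the cartilage regulator Sox9, and the *Col9* and *Col2a1* genes encode collagens of cartilage. *Sox6* had −0.56 and −0.39 with *Crabp1*, and −0.46 and −0.42 with *Crabp2*, in NXT0142 and NXT0143. Of the 41 zeugopod cells with *Sox6*, 8 had *Crabp1* and 21 had *Crabp2*.

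Zeugopod cells were next split by a list of cartilage markers, *Sox9*, *Col2a1*, *Acan*, *Col9a1* and *Matn1*, of which 3 were required. This put 38 zeugopod cells in a chondrogenic group and 85 outside it. *Crabp1* was detected in 9 of the 38 (23.7%, interval 11.4 to 40.2%) and in 54 of the 85 (63.5%, interval 52.4 to 73.7%). In NXT0142 the shares were 21.1% inside and 71.8% outside, and in NXT0143 26.3% and 56.5%. *Crabp2* was in 18 of the 38 (47.4%, interval 31 to 64.2%) and in 71 of the 85 (83.5%, interval 73.9 to 90.7%), with 63.2% and 87.2% in NXT0142 and 31.6% and 80.4% in NXT0143. Both binding proteins were thus less frequent in cells with cartilage markers in each run. Of the markers, *Col9a1* and *Col2a1* were also among the genes found least like the binding proteins in these same cells. The split is therefore no separate support for those low rank correlations.

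The receptor *Rarg* and the enzyme *Cyp26b1* went the other way in the zeugopod. *Rarg* was in 22 of the 38 chondrogenic cells (57.9%, interval 40.8 to 73.7%) and in 30 of the 85 others (35.3%, interval 25.2 to 46.4%). *Cyp26b1* was in 12 of the 38 (31.6%, interval 17.5 to 48.7%) and in 12 of the 85 (14.1%, interval 7.51 to 23.4%). These intervals overlapped, and both differences were larger in NXT0143 (68.4% against 34.8% for *Rarg*, and 42.1% against 10.9% for *Cyp26b1*) than in NXT0142 (47.4% against 35.9%, and 21.1% against 17.9%). *Aldh1a2* was in 0 of the 38 and 5 of the 85. With 2 markers required, a setting added after seeing the data, 76 cells were in the group, and the share of *Cyp26b1* differed by less than 1 percentage point (−0.588, outside minus inside, in place of −17.5). That of *Crabp2* differed by 13.7 points in place of 36.2 and that of *Crabp1* by 41.1 in place of 39.8. The median number of genes detected inside and outside the group was 3857 and 4342 in NXT0142 and 3882 and 3718 in NXT0143, and its part in the shares was not tested.

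The autopod did not show the same picture in both runs. In NXT0072, of 27 chondrogenic cells and 32 others, *Crabp1* was in 14.8% and 31.3% and *Crabp2* in 51.9% and 71.9%. In NXT0143, of 8 and 9 cells, *Crabp1* was in 12.5% and 11.1% and *Crabp2* in 75.0% and 55.6%. *Rarg* was in 74.1% and 87.5% in NXT0072 and in 62.5% and 55.6% in NXT0143. The markers themselves differed between the tissues, as *Sox9* was in 72 of 76 autopod cells and 79 zeugopod cells, while *Col2a1* was in 43 of the 76 autopod cells and in all but 11 zeugopod cells.

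**Figure D4:**
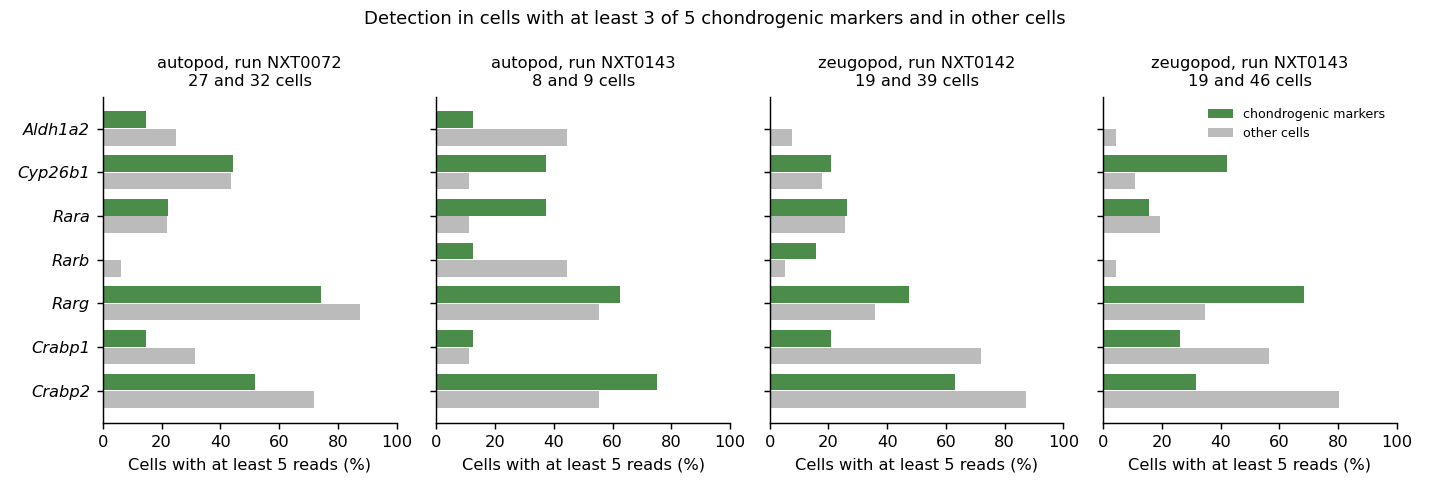
Share of cells with at least 5 reads of each gene (horizontal axis, in percent) among cells with at least 3 of 5 chondrogenic markers (green) and among the other cells (grey), in each tissue and run. In both panels of zeugopod cells the green bars of *Crabp1* and *Crabp2* are shorter than the grey ones (21.1% against 71.8% and 26.3% against 56.5% for *Crabp1*).

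Among the receptors *Rarg* was the most frequent in either tissue. It lies on the minus strand at chr15:102234938-102257517. It was detected in 58 of 76 autopod cells (76.3%, interval 65.2 to 85.3%) and in 52 zeugopod cells (42.3%, interval 33.4 to 51.5%). In NXT0072 and NXT0143 the autopod had 81.4% and 58.8% (interval 32.9 to 81.6%), and in NXT0142 and NXT0143 the zeugopod had 39.7% and 44.6%. The share was higher in autopod cells of either run than in zeugopod cells of either run, but within NXT0143 the intervals overlapped. In cells with *Rarg* the median normalized value was 40.7 in the autopod (1.70 to 2521) and 34.4 in the zeugopod (0.727 to 643), and summed reads gave 118.3 and 48.9 CPM. The 5 genes most like it in the autopod were *Lztfl1*, *Dach1*, *1810043H04Rik*, *Uqcrh* and *Wdr36*, at means of 0.47 to 0.51, and all 19 autopod cells with *Lztfl1* had *Rarg*.

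*Rara*, the most broadly expressed receptor of the family in most tissues, lies on the plus strand at chr11:98927818-98974942. It was detected in 17 of 76 autopod cells (22.4%, interval 13.6 to 33.4%) and in 27 zeugopod cells (22%, interval 14.99 to 30.3%), with shares of 18.5 to 25.9% over the 4 groups of tissue and run. The tissues overlapped in full. Its median in cells with the gene was 8.68 in the autopod and 14.8 in the zeugopod. Its sums of 16.7 and 40.7 CPM rested on few cells, and without the cell with most reads they were 5.30 and 28.1 CPM. *Rara* and *Rarg* were together in 15 of the 17 autopod cells with *Rara* (product 12.9) and in 15 of the 27 zeugopod cells (product 11.3). *Rnf219*, *Ermp1*, *Rufy2*, *Tbc1d10b* and *Kctd15* were most like *Rara* in the autopod, at means of 0.50 to 0.54.

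*Rarb*, the receptor gene that is itself known to be switched on by retinoic acid, was rare. It lies on the minus strand at chr14:16430839-16819156 and was detected in 7 of 76 autopod cells (9.21%, interval 3.78 to 18.1%) and in 7 zeugopod cells (5.69%, interval 2.32 to 11.4%). The autopod runs stood apart, with 2 of 59 cells in NXT0072 and 5 of 17 in NXT0143, whose intervals (0.413 to 11.7% and 10.3 to 56%) overlapped little. The 7 autopod cells with *Rarb* held 8, 14 and 52 reads in the lowest of them and 186, 266 and 379 in the highest. Of the 7 zeugopod cells, 5 held 5 to 10 reads, 1 held 171 and 1 held 4324, which was 94.6% of the reads of the tissue. Without that cell the zeugopod had 0.632 CPM in place of 11.5 CPM. *Rarb* shares 1793 of its 5265 annotated exon bases with *Top2b* on the other strand, and reads without strand cannot be told apart there. *Top2b* was detected in 146 cells of both tissues and in 9 of the 14 with *Rarb*, and had 9 reads in the cell with 4324 of *Rarb*.

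Of the 7 autopod cells with *Rarb* 4 also had *Aldh1a2*, against a product within runs of 1.88, with 1 in NXT0072 and 3 in NXT0143. These 4 cells held 5979, 6194, 14831 and 22795 reads of *Aldh1a2*, each over 5000. Of 6745 genes, 94.4% had a ratio to *Rarb* at or below the 2.13 of *Aldh1a2*, and the median ratio was 1.12. *Rara* gave the opposite count, as 1 of the 17 cells with *Aldh1a2* had *Rara* against a product of 3.82. Of the 6744 genes 0.712% had a ratio to *Aldh1a2* at or below that of *Rara*. In the zeugopod the count lay above the product, with *Rara* in 3 of the 5 cells with *Aldh1a2* against 1.15. All of these counts are small.

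The promoters of the members, from 250 bases before to 50 bases after the start, were taken from RefSeq on GRCm38.p6 and searched for the repeat that receptors are known to bind. The letters searched on both strands were GGTCA or GTTCA followed in the same direction by either of them, with 5, 2 or 1 bases between the half-sites of 6 bases of which these letters are the last 5. Of the 7 members 6 had a promoter in the table, in 10 windows, and *Rarb* was the one with a repeat, with 5 bases between the half-sites. Such a repeat was found in 0.247% of the 32851 windows. Repeats with 2 and 1 bases between were in 0.399% and 0.402% of all windows and in 0 of the 10. Among the listed genes of the pathway that are not members, the windows of *Cyp26a1* held 1 with 5 bases between. The *Rarb* window, chr14:16575427-16575726 on the minus strand, is printed because this gene is the textbook target of the receptors, with the half-sites in capitals at bases −52 to −37 from the start.
Rarb promoter: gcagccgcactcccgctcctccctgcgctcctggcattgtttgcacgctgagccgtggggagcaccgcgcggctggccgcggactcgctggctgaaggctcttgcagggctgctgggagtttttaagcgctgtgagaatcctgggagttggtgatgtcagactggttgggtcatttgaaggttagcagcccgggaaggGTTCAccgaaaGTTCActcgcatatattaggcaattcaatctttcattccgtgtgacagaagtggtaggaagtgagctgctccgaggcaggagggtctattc
A match of letters is a description of the window, and no binding was measured here.

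No cell had more than 5 of the 7 genes. In the autopod 3 of 76 cells had none of the 7 genes, 12 had 1, 22 had 2, 20 had 3, 18 had 4 and 1 had 5. In the zeugopod 4 cells had none, 34 had 1, 40 had 2, 30 had 3, 12 had 4 and 3 had 5. At least 1 receptor was detected in 84.2% of autopod cells (interval 74.04 to 91.6%) and in 54.5% of zeugopod cells (interval 45.2 to 63.5%), and at least 1 binding protein in 68.4% (interval 56.7 to 78.6%) and 82.1% (interval 74.2 to 88.4%). The order of the tissues was thus opposite for receptors and binding proteins, though the intervals for binding proteins overlapped. Within NXT0143 the autopod and zeugopod shares were 82.4% and 53.8% for receptors, and 64.7% and 78.5% for binding proteins. There the intervals overlapped for both. A receptor and a binding protein were together in 57.9% of autopod cells (interval 46.02 to 69.1%) and in 43.1% of zeugopod cells (interval 34.2 to 52.3%), and 14 of the 17 autopod cells with *Aldh1a2* had both. At this depth a gene without 5 reads in a cell may have been missed.

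Of the 21 pairs of members, 2 more are given here. *Cyp26b1* and *Crabp2* were both in 12 zeugopod cells, against a product of 17.3, with 6 against 8.72 in NXT0142 and 6 against 8.60 in NXT0143. For *Crabp2*, 0.213% of 7505 genes had a ratio at or below that of *Cyp26b1*, and for *Cyp26b1*, 13.4% had a ratio at or below that of *Crabp2*. In the autopod both were in 18 cells against 18.9. *Aldh1a2* and *Crabp2* had 15 joint cells in the autopod against 10.8, 11 against 7.53 in NXT0072 and 4 against 3.24 in NXT0143, and 97.3% of 6744 genes had a ratio to *Crabp2* at or below it, while 75.4% had a ratio to *Aldh1a2* at or below that of *Crabp2*. These pairs were picked after their values were seen.

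The tissues were then set against each other on the log2(normalized value + 1) scale, as means over cells. A difference of at least 1 in size was used to call a gene, and was set beside the 8986 genes detected in no fewer than 10% of cells in one tissue or the other. Of the 7 members 6 passed this filter, *Rarb* did not, and *Aldh1a2* passed through the autopod alone. Over all retained cells 3 members were higher in the autopod by at least 1, where 3.45% of all genes were, and 1 was higher in the zeugopod, where 7.62% of all genes were. The means were 4.36 and 2.34 for *Rarg* (difference 2.02), 2.63 and 0.73 for *Aldh1a2* (1.90), and 2.38 and 1.16 for *Cyp26b1* (1.22), in autopod and zeugopod. With a pseudocount of 10 in place of 1 the difference of *Cyp26b1* was 0.61 and no longer called. For *Crabp1* they were 2.96 and 5.82 (−2.86). *Crabp2* fell just short of the threshold at 6.24 and 7.23 (−0.99), *Rara* had 1.09 and 1.29 (−0.20) and *Rarb* 0.95 and 0.65 (0.30). The SD over cells was 0.91 to 4.85, and the values of cells overlapped between the tissues for each gene.

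Run and tissue coincide outside NXT0143, so each difference was also taken by run. Within NXT0143, *Aldh1a2* was higher in the autopod by 2.65, where 12.9% of all genes were called in that direction, and *Crabp1* in the zeugopod (−3.37), where 6.29% were. *Rarg* at 0.57, *Cyp26b1* at 0.29, *Crabp2* at 0.09 and *Rara* at −0.07 were not called. Between the autopod cells of NXT0072 and the zeugopod cells of NXT0142, *Rarg* (2.37), *Aldh1a2* (1.69) and *Cyp26b1* (1.47) were higher in the autopod, where 3.98% of all genes were called, and *Crabp1* (−2.94) and *Crabp2* (−1.98) in the zeugopod, where 15.0% were. *Aldh1a2* and *Crabp1* were thus called the same way in both comparisons by run, while the calls of *Cyp26b1*, *Rarg* and *Crabp2* rested on NXT0072 and NXT0142. *Rarb*, below the filter, was at 1.63 within NXT0143 and at −0.11 in the other comparison. The median of all genes was 0.10 within NXT0143 and −0.20 in the other comparison.

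**Figure D5:**
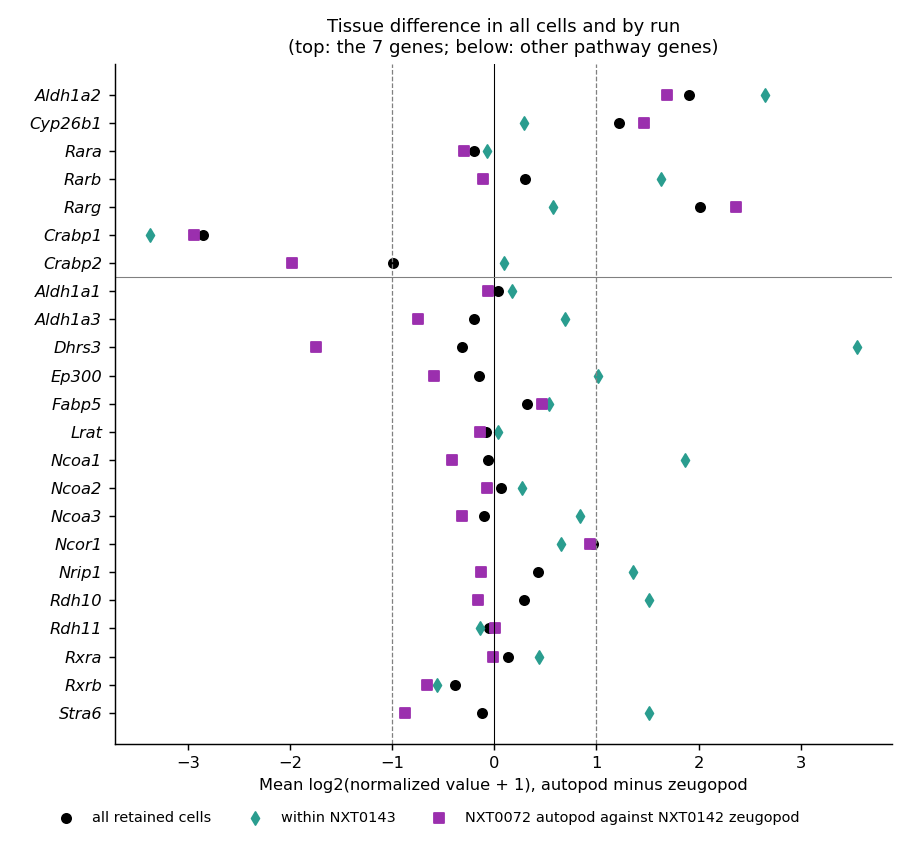
Difference between autopod and zeugopod in mean log2(normalized value + 1) (horizontal axis) for the 7 genes (top) and the 16 other genes of the pathway in the normalized table (below), over all retained cells (black circles), within run NXT0143 (green diamonds) and between NXT0072 and NXT0142 (purple squares). Dashed lines mark a difference of 1 in either direction, and *Aldh1a2* and *Crabp1* lie beyond them in all 3 comparisons.

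A list of 23 other genes of the pathway was counted in the same way. Of these 16 were in the normalized table and 13 passed the filter. Over all retained cells 0 of 13 were called in either direction, where 3.45% of all genes were higher in the autopod and 7.62% in the zeugopod. The median difference was −0.06, beside −0.07 over all genes. Between NXT0072 and NXT0142 0 were higher in the autopod and 1 in the zeugopod, where 3.98% and 15.0% of all genes were. The 1 was *Dhrs3* (−1.74), which turns retinaldehyde back to retinol. Within NXT0143, 6 were higher in the autopod and 0 in the zeugopod, where 12.9% and 6.29% of all genes were. The median there was 0.84, beside 0.10 over all genes. The 6 were *Dhrs3*, at 3.55 and so with the opposite sign, *Rdh10* (1.52), which makes retinaldehyde, *Stra6* (1.51), a receptor for the carrier of vitamin A, and the coregulators *Ncoa1* (1.87), *Nrip1* (1.36) and *Ep300* (1.02). *Dhrs3* was detected in 11 of the 17 autopod cells and 19 of the 65 zeugopod cells of NXT0143, and in 15 of 59 autopod cells of NXT0072 and 21 of 58 zeugopod cells of NXT0142. The difference between these 2 sets of autopod cells cannot be told apart from run.

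The corepressor *Ncor1* came nearest to the threshold over all retained cells, with means of 3.61 and 2.65 (0.97), and was detected in 52 autopod and 83 zeugopod cells. *Rdh10* was detected in 10 autopod and 9 zeugopod cells, and *Stra6* in 9 and 19. *Aldh1a1*, another retinaldehyde dehydrogenase, was in 1 and 2, and *Aldh1a3* in 7 and 12. The partner receptors *Rxra* and *Rxrb* were in 14 and 26 and in 11 and 22 cells, and *Rxrg* in 1 of each tissue. *Meis1*, *Meis2* and *Tgm2*, genes known to respond to retinoic acid, were in 0 autopod cells and in 3, 6 and 1 zeugopod cells.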

How the data were processed

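Retained single cells of 2 tissues were described for 7 genes. The authors mapped reads of 75 bases uniquely to mm10 with bowtie2 in local mode, counted them on the ENSEMBL genes of GRCm38 with HTSstation, and deposited raw counts of reads per gene for 225 cells. They also deposited a normalized signal for 199 cells, made with scran from spike-in size factors centred within each batch and then corrected for gene length, so levels between runs hold only if the centring holds. For the 10934 genes with a cell without reads, all values times gene length were whole numbers within 1e-06. Some genes of the pathway are not reported here, and the counts of the pathway list leave them out. The 92 spike-in rows were not used here.

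Detection was 5 reads or more. Tissue differences are those of the mean log2(normalized value + 1) over cells, and cells of a tissue were not treated as replicates. Joint counts are set beside the product of both shares within each run, summed over runs. Genes most like a member were the 5 with the highest mean of both within-run Spearman coefficients, in the tissue with the larger share of its cells. Positions and transcripts came from GENCODE vM21. Python 3.11.15, numpy 2.4.6, pandas 2.3.3 and scipy 1.17.1 were used, and the calculations were tested on simulated data. Alternatives were CPM, pseudocounts of 0.1 and 10, other thresholds, each run alone and cells thinned at random to 500000 reads (seed 42), which left out 8 cells. The members, the lists, the named genes and the alternatives were chosen with earlier results of these data known, and the alternatives for the cartilage group (2 or 4 markers, each run, thinned cells) were added after seeing the data. The 26 cells that the authors left out had 17 to 2926028 reads on genes and entered no comparison.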

Additional observations from a re-analysis of the deposited data

Results flagged for a closer look

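For 8 genes the difference between autopod and zeugopod had opposite signs within NXT0143 and between NXT0072 and NXT0142, with a size of at least 1 in one of them, and these differences between runs were not tested. The members are *Crabp2*, at 0.09 and −1.98, a gap of 2.07 on the log2 scale, and *Rarb*, at 1.63 and −0.11, a gap of 1.74. *Rarb* rests on 5 of the 17 autopod cells of NXT0143. Of the other genes of the pathway, *Dhrs3* had the widest gap, 5.30, followed by *Stra6* (2.38), *Ncoa1* (2.28), *Rdh10* (1.67), *Ep300* (1.61) and *Nrip1* (1.49). All 8 were higher in the autopod within NXT0143 relative to the other comparison, and the medians of all genes, 0.10 and −0.20, lay apart in the same direction.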

How the results depend on the processing

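Of the 49 alternative values of the 7 tissue differences 43 moved by less than the SD between both comparisons by run, and 0 of the differences called changed sign. The setting without the gene filter leaves each of the 7 differences unchanged by construction. The SD comes from comparisons that are themselves among the alternatives, and it is wider the more the runs differ. *Crabp2* at 0.09 within NXT0143, in place of −0.99, therefore counts among the 43. The 6 that moved were, within NXT0143, *Aldh1a2* (2.65), *Cyp26b1* (0.29), *Rarb* (1.63), *Rarg* (0.57) and *Crabp1* (−3.37), and *Crabp1* with a pseudocount of 10 (−2.21). With a pseudocount of 10 *Cyp26b1* fell below the threshold (0.61), which left 2 members higher in the autopod in place of 3. The number of members higher in the zeugopod was 2 in place of 1 with log2(CPM + 1), with a pseudocount of 0.1, between NXT0072 and NXT0142, and with thinned cells. *Crabp2* was the added gene between NXT0072 and NXT0142. Autopod cells with both *Aldh1a2* and *Cyp26b1* were 10 in place of 6 at 1 read, where the pooled product was 10.2, and 1 in NXT0143 alone. In the zeugopod there was 1 in place of 0 at 1 read, at a normalized value of 5 and at 1 read after thinning. In the chondrogenic comparisons 19 of the alternative values moved by less than their spread and 1 moved further, the gap of *Crabp2* with 2 markers required. This spread also comes from the runs, which are among the alternatives. The gap of *Cyp26b1* with 2 markers required, which nearly vanished, counts among the 19. Depth limits what a cell without reads shows, the 17 autopod cells of NXT0143 limit each comparison within that run, and the labels give no embryo for a cell. No paired analysis was possible because the result comes from no test.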

Other observations

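Among the 20 autopod cells that the authors left out for quality, 3 had at least 5 reads of *Aldh1a2*, with up to 204, and 2 had *Crabp2*. Among the 6 zeugopod cells left out, 1 had *Crabp1*, with 269 reads.

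By the tendon list (*Scx*, *Tnmd* and *Tnc*, 2 required) 17 zeugopod cells and 0 autopod cells were counted. *Crabp2* was found in 29 of the 35 zeugopod cells with *Scx*, against a product of 25.4, and *Crabp1* in 17 against 17.96.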
